A study of Mus musculus with 4 samples.

Results

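Mitochondrial ribosomal proteins are the protein part of the ribosome that works inside mitochondria. They were chosen as all genes whose symbol in the platform annotation begins with Mrpl or Mrps followed by a digit, pseudogenes excluded, on probe sets with 1 symbol, taking the brightest probe set of a gene. This gave 77 of 19946 genes, 48 named for the large subunit (Mrpl) and 29 for the small subunit (Mrps). RNA came from mouse colonic epithelium, detached with EDTA on day 12 of a colitis-associated cancer model. C57BL/6 mice aged 6 to 8 weeks had received 10 mg/kg of azoxymethane, a colon carcinogen, and then 3.5% dextran sulfate sodium to drink for 5 days, which damages the epithelium and inflames the colon. The groups were Bmi1ΔIEC Mel18ΔIEC (DKO, both genes deleted), Bmi1ΔIEC (Bmi1_KO), Mel18ΔIEC (Mel18_KO) and WT, each with 1 Affymetrix Mouse Gene 1.0 ST array, and all 4 had the same carcinogen and colitis treatment. Bmi1 and Mel18 (gene symbol Pcgf2) encode related subunits of Polycomb repressive complex 1. Which driver deletes the genes, and how many mice stand behind an array, is not stated in the labels. With 1 array per genotype no difference has a replicate check, no test was made, and every value below is a description of these arrays.

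The mitochondrial ribosome translates the few proteins that mitochondrial DNA encodes, which are core subunits of the respiratory chain and ATP synthase. Its ribosomal RNAs come from mitochondrial DNA, whereas all of its proteins are made from nuclear genes in the cytosol and imported. Colonocytes rely on mitochondrial oxidation of butyrate, and dividing crypt cells make new mitochondria along with new cytosolic ribosomes.

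The arrays themselves set limits on every comparison. Across the 12527 genes that reached a log2 intensity of 6 on any array, DKO correlated with the other arrays at 0.878 to 0.906, and the other pairs lay between 0.978 and 0.982. Neither Bmi1 (7.64 on DKO and 7.43 on Bmi1_KO, against 6.999 on Mel18_KO and 7.25 on WT) nor Pcgf2 (6.81 on DKO and 6.84 on Mel18_KO, against 6.72 on Bmi1_KO and 6.96 on WT) was clearly lower where the labels state its deletion. The labels do not give the deleted exons, and whether these probe sets cover them was not tested. The readings therefore do not check the labels, by which the arrays are named. All 9 genes of a seminal vesicle list, chosen with earlier results of these arrays known, read highest on WT. Svs2, for instance, read 4.50 on DKO, 6.82 on Bmi1_KO and 4.32 on Mel18_KO, against 12.02 on WT. DKO is therefore also set against the mean of the single deletions, without the WT array.

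All 77 members were lower on DKO than on WT (54.3% of all genes were), and 65 were at least 1.5-fold lower, while 0 were 1.5-fold higher. Over all 12527 genes, 20.1% were at least 1.5-fold lower and 14.3% higher in this comparison. Among the 8638 genes within the members' range of mean intensity, 24.1% were lower and 13.1% higher. The members' median difference was -0.96 on the log2 scale, against -0.05 over all genes, and their differences ran from -1.78 to -0.13. At a limit of 2-fold, 31 members were lower, against 8.19% of all genes. DKO was the lowest of the 4 arrays for 76 members (46.0% of all genes), and for 55 members it was at least 1.5-fold below each of the other arrays (14.6% of all genes). The other 3 arrays differed among themselves by a median of 0.20 for a member. For 71 members the gap between DKO and the lowest other array was wider than the whole range of the other 3 arrays (31.4% of all genes).

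**Figure D1:**
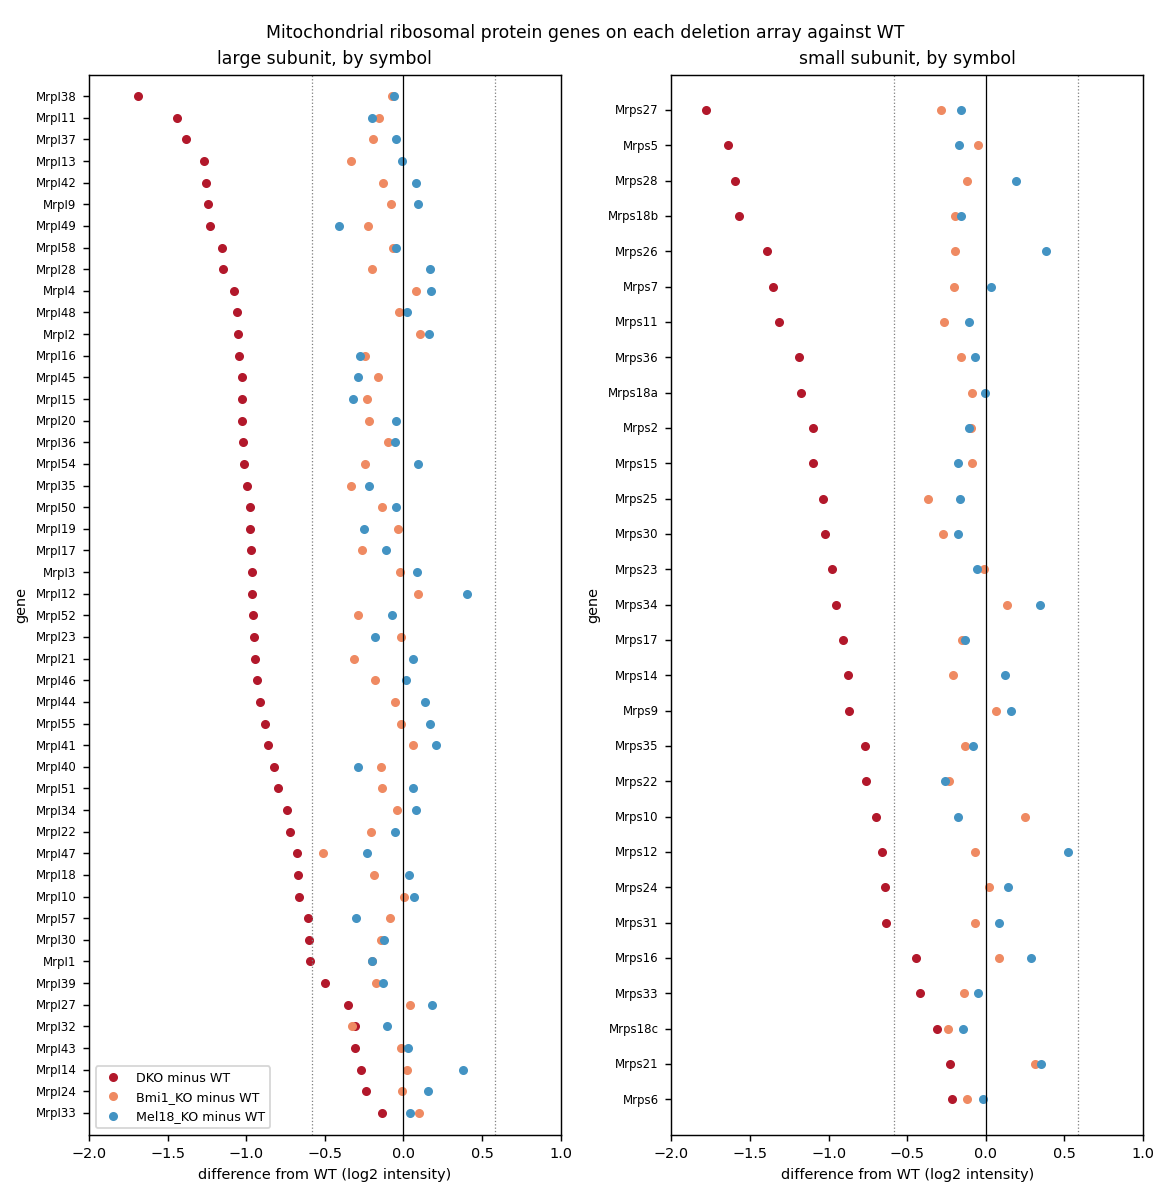
Difference in log2 intensity from WT for each mitochondrial ribosomal protein gene on the DKO, Bmi1_KO and Mel18_KO arrays, 1 point per array, with large subunit genes on the left and small subunit genes on the right. Dotted lines mark 1.5-fold. The DKO points lie between -1.78 and -0.13, while no Bmi1_KO or Mel18_KO point passes 1.5-fold.

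Setting DKO against the mean of the single deletions gave a similar picture without WT. All 77 members were lower on DKO (55.7% of all genes were), and 61 were at least 1.5-fold lower, against 18.8% of all genes. In this comparison 0 members were 1.5-fold higher, against 14.0% of all genes. The median difference was -0.83 for the members and -0.07 for all genes. At 2-fold, 23 members were lower (6.51% of all genes). The DKO array enters this comparison and the one against WT, so they are not independent of each other.

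The lowest value against WT was that of a small subunit gene. Mrps27, a pentatricopeptide-repeat protein of the small subunit, read 6.99 on DKO, against 8.49 on Bmi1_KO, 8.62 on Mel18_KO and 8.78 on WT, which is 3.44-fold lower on DKO than on WT (log2 difference -1.78). The other 3 arrays lay within 0.28 of each other and well above DKO. Mrps5, which belongs to a family conserved with bacteria, read 8.22 on DKO, against 9.81 on Bmi1_KO, 9.69 on Mel18_KO and 9.86 on WT (-1.64). Mrps28 read 7.16 on DKO, against 8.64 on Bmi1_KO, 8.96 on Mel18_KO and 8.76 on WT (-1.60). Mrps18b, a member of the S18 family, read 8.77 on DKO, against 10.14 on Bmi1_KO, 10.18 on Mel18_KO and 10.34 on WT (-1.57). In each of these 4 genes DKO stood alone at the low end. Next within the small subunit came Mrps26 (-1.39), Mrps7 (-1.35), Mrps11 (-1.31) and Mrps36 (-1.19). Despite its symbol, Mrps36 is now regarded as a part of the oxoglutarate dehydrogenase complex and not of the ribosome.

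Of the 29 small subunit genes, 24 were past 1.5-fold against WT, and those nearest to 0 were Mrps6 and Mrps21. Mrps6 read 10.74 on DKO, against 10.84 on Bmi1_KO, 10.94 on Mel18_KO and 10.95 on WT (-0.21). All 4 arrays lay close together. Mrps21 read 10.72 on DKO, against 11.25 on Bmi1_KO, 11.29 on Mel18_KO and 10.94 on WT (-0.22). Here the single deletions were the highest arrays, and against their mean the difference was -0.55. Mrps18c (-0.31), Mrps33 (-0.42) and Mrps16 (-0.45) also stayed under the 1.5-fold limit against WT, and the nearest gene past it was Mrps31 (-0.63). Against the mean of the single deletions Mrps16 was past the limit (-0.63). The 3 genes of the S18 family thus spread widely against WT, from Mrps18b (-1.57) over Mrps18a (-1.17) to Mrps18c (-0.31). Mrps12, the protein of the decoding centre, read 7.41 on DKO, against 8.01 on Bmi1_KO, 8.60 on Mel18_KO and 8.08 on WT (-0.66), with Mel18_KO the highest array. Mrps24 gave -0.64 against WT, and both were past the limit.

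Among large subunit genes, Mrpl38, a protein of the central protuberance, differed most. It read 7.39 on DKO, against 9.002 on Bmi1_KO, 9.01 on Mel18_KO and 9.07 on WT, a 3.22-fold lower level on DKO than on WT (-1.69). The other 3 arrays were nearly equal. Mrpl11, at the base of the factor-binding stalk, read 7.80 on DKO, against 9.08 on Bmi1_KO, 9.04 on Mel18_KO and 9.24 on WT (-1.44). Mrpl37 read 8.71 on DKO, against 9.90 on Bmi1_KO, 10.05 on Mel18_KO and 10.10 on WT (-1.38). Differences of similar size were seen for Mrpl13 (-1.27), Mrpl42 (-1.26), Mrpl9 (-1.24), Mrpl49 (-1.23) and Mrpl58, a peptidyl-tRNA hydrolase built into the ribosome (-1.15). At the other end stood Mrpl33 (-0.13), Mrpl24 (-0.24), Mrpl14 (-0.27), Mrpl43 (-0.31) and Mrpl32 (-0.31). Mrpl32, whose maturation by a mitochondrial protease controls ribosome assembly, was the only member not lowest on DKO, at 7.82 on DKO, against 7.80 on Bmi1_KO, 8.02 on Mel18_KO and 8.13 on WT. Mrpl1 (-0.59) lay just past the 1.5-fold limit and Mrpl39 (-0.50) just short of it.

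**Figure D2:**
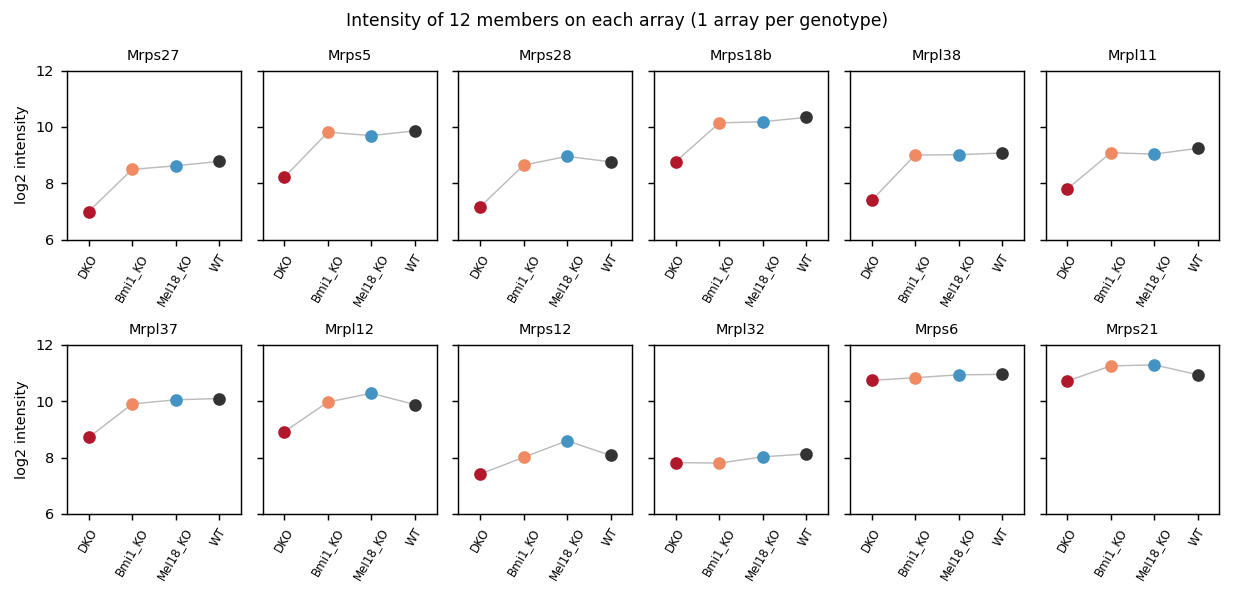
Log2 intensity of 12 members on each array, with 1 point per genotype in the order DKO, Bmi1_KO, Mel18_KO and WT and lines only joining the points of a gene. DKO stands alone at the low end for Mrps27, Mrps5, Mrps28, Mrps18b, Mrpl38, Mrpl11 and Mrpl37, whereas the 4 arrays lie close together for Mrps6 (10.74 to 10.95) and Mrpl32 (7.80 to 8.13). Intensities of different genes are not comparable.

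Large and small subunit genes differed from WT by nearly the same amount on DKO. The median was -0.96 for the 48 large subunit genes and -0.95 for the 29 small subunit genes, a difference of -0.01 between medians. At least 1.5-fold lower were 41 large subunit genes (85.4%) and 24 small subunit genes (82.8%). The quartiles were -1.05 and -0.67 in the large and -1.19 and -0.66 in the small subunit. The small subunit was thus the more spread against WT. Against the mean of the single deletions the medians were -0.82 and -0.89, with 37 and 24 genes at least 1.5-fold lower. The departure from additivity (log2 DKO plus WT, minus Bmi1_KO and Mel18_KO) had a median of -0.73 in the large and -0.88 in the small subunit. Its quartiles were -1.04 and -0.47 in the large and -1.11 and -0.63 in the small subunit. In that value the large subunit was the more spread. Mrps18a and Mrps30 are built into the large subunit despite their symbols, and with them moved and Mrps36 left out the medians against WT became -0.96 for 50 genes and -0.89 for 26. These gaps are small beside the spread of either subunit.

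Members with and without bacterial relatives gave similar medians. For 48 members with a relative in the bacterial ribosome the median against WT was -0.95, with 39 at least 1.5-fold lower, and for 28 members found in mitochondrial ribosomes but not in bacterial ones it was -0.97, with 25 lower. By place, the 3 stalk proteins Mrpl10 (-0.67), Mrpl11 (-1.44) and Mrpl12 (-0.96) were all past 1.5-fold. Mrpl12, which also binds the mitochondrial RNA polymerase, read 8.92 on DKO, against 9.97 on Bmi1_KO, 10.28 on Mel18_KO and 9.88 on WT. Mel18_KO was its highest array. Of 5 proteins around the exit tunnel 4 were lower, Mrpl24 being the exception, with a median of -0.91. Of 6 central protuberance proteins 5 were lower (median -0.88), with Mrpl27 at -0.35. Of 7 head proteins of the small subunit 6 were lower (median -0.77), with Mrps33 at -0.42. The difference on DKO was weakly related to the mean intensity of a member (Pearson r = 0.15 across 77 genes read on the same arrays).

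For 8 members a second probe set gave a separate reading of the gene on the same arrays, and all 8 second readings were also lower on DKO than on WT. The probe sets of Mrpl23 gave -0.95 and -0.96, and those of Mrps36 gave -1.19 and -1.18. Mrps5 gave -1.64 on the brighter and -1.35 on the dimmer set. Mrpl41 differed most between its sets, at -0.86 on the brighter and -0.23 on the dimmer, while Mrpl27 gave -0.35 on the brighter and -0.62 on the dimmer, which puts them on opposite sides of the 1.5-fold limit. Mrpl47 gave -0.68 and -0.33, the second from a set reading near the floor. Members with close copies elsewhere in the genome may share signal with them, and this was not tested.

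The single deletions differed little from WT in these genes, and 0 members were 1.5-fold apart in either direction on Bmi1_KO (1.53% of all genes were lower and 2.02% higher) or on Mel18_KO (2.35% lower and 1.19% higher). On Bmi1_KO, 63 of 77 members lay below WT by any amount, against 53.5% of all genes, with a median of -0.13 against -0.02 over all genes. Mrpl47 was the furthest below, at 7.23 on Bmi1_KO and 7.75 on WT (-0.51), followed by Mrps25 (-0.37), Mrpl13 (-0.34) and Mrpl35 (-0.33). Mrps21 was the furthest above, at 11.25 on Bmi1_KO and 10.94 on WT (0.31), followed by Mrps10 (0.25). On Mel18_KO, 43 of 77 members lay below WT, against 49.1% of all genes, with a median of -0.04. Mrps12 stood highest there, at 8.60 on Mel18_KO and 8.08 on WT (0.52), then Mrpl12 (0.40), Mrps26 (0.38) and Mrpl14 (0.38). Mrpl49 was the lowest, at 9.31 on Mel18_KO and 9.72 on WT (-0.41), then Mrpl15 (-0.32). Both comparisons use the WT array.

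The departure from additivity was below 0 for 74 of 77 members (55.9% of all genes). It was at least 1.5-fold below for 53 members and above for 0, against 19.1% and 15.4% of all genes, with a median of -0.78 for members and -0.08 for all genes. The lowest values were those of Mrps28 (-1.68), Mrps26 (-1.58), Mrpl38 (-1.55), Mrpl12 (-1.46), Mrps5 (-1.43) and Mrps34 (-1.43). Mrps26 read 6.26 on DKO, against 7.46 on Bmi1_KO, 8.04 on Mel18_KO and 7.66 on WT. Mel18_KO was its highest array. The 3 members above 0 were Mrpl32 (0.12), Mrps18c (0.08) and Mrpl47 (0.07). All 4 arrays enter this value once, and it has no error of its own.

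The upstream sequence of members at the extremes, and of members that start beside another gene, is shown because many of these genes share a start region with a neighbour on the other strand. Sequences are from RefSeq on build GRCm38.p6, 5′ to 3′ on the gene's strand, ending at the base before the start and cut at the neighbour's start where one lies within 250 bases. Capitals mark a match to a searched motif, on either strand. Mrps27, which had the lowest difference from WT, faces Ptcd2 108 bases away, and its stretch (chr13:99344679-99344785, plus strand) holds an ETS match. Mrps21, among the least different, has its stretch at chr3:95871515-95871764 (minus strand), with an NRF1 match. Mrps11 starts 42 bases from Mrpl46, a large subunit gene, on the other strand (chr7:78783090-78783130, plus strand). Mrps12 starts 147 bases from Sars2, the mitochondrial seryl-tRNA synthetase (chr7:28741822-28741967, minus strand). The motif search described below covered more bases than are printed here. In it Mrps27 also held a YY1 match and Mrps21 an ETS match, while Mrps11 held a YY1 match and Mrps12 an ETS match. The capitals therefore do not show all matches of these genes.
Mrps27: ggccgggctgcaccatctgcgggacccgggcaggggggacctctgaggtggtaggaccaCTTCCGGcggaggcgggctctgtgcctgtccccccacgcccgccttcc
Mrps21: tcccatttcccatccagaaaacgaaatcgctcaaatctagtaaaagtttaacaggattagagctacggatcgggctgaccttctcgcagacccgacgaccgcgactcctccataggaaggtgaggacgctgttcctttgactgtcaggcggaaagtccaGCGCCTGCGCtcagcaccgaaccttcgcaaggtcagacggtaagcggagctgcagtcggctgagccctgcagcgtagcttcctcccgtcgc
Mrps11: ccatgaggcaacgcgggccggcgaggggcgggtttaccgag
Mrps12: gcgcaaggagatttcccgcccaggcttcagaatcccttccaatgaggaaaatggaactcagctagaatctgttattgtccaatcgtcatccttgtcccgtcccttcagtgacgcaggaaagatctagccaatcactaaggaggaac

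Motifs were searched on both strands of the 300 bases from 250 before to 50 after each start, for the 68 members with an entry in the table. The ETS core CCGGAAG, bound by GABP, was in 25 members (36.8%), against 18.9% of 9989 analysed genes with an entry. The NRF1 motif was in 13 (19.1%, against 10.8%) and the YY1 motif ATGGCGGC in 11 (16.2%, against 5.39%). The E-box CACGTG, bound by MYC and other factors, was in 5 (7.35%, against 11.4%). These shares overlap, as a gene can hold several motifs, and 43 of 68 members held at least 1. A match is a description of the letters, not evidence of binding.

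Of the 68 members, 26 (38.2%) had a neighbour starting within 1000 bases on the other strand, facing away, against 18.6% of analysed genes with an entry. The only pair of members was Mrpl46 with Mrps11, and both were lower on DKO. Mrpl46 read 7.97 on DKO, against 8.73 on Bmi1_KO, 8.92 on Mel18_KO and 8.91 on WT (-0.93). Mrps11 read 6.87 on DKO, against 7.91 on Bmi1_KO, 8.08 on Mel18_KO and 8.18 on WT (-1.31). Of the 20 other neighbours that were analysed, 8 were lower on DKO than on WT by 1.5-fold or more and 0 higher, with a median of -0.31, so as a set they differed less than the members. Over all 12527 genes, 20.1% were lower and 14.3% higher in this comparison, with a median of -0.05.

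Neighbours that were also lower included Sars2 beside Mrps12, at 6.91 on DKO, against 8.07 on Bmi1_KO, 8.21 on Mel18_KO and 8.36 on WT (-1.45). The mitochondrial helicase Twnk, beside Mrpl43, gave -1.01. Ptcd2, a mitochondrial pentatricopeptide-repeat protein beside Mrps27, gave -1.11. In some pairs the neighbour differed more than the member itself, as did Sars2 (-1.45 against -0.66) and Twnk (-1.01 against -0.31). Others were Tcp1, a chaperonin subunit beside Mrpl18 (-1.28 against -0.67), and Ndufb5, a complex I subunit beside Mrpl47 (-0.89 against -0.68). The same held for Ska3, a kinetochore protein beside Mrpl57 (-1.80 against -0.61), Ncapd2, a condensin subunit beside Mrpl51 (-1.77 against -0.80), and Eme1, an endonuclease subunit beside Mrpl27 (-1.42 against -0.35). In further pairs the neighbour was under 1.5-fold from WT while the member was lower. Zfp661 gave -0.26 beside Mrps5 (-1.64), Gga3 gave -0.20 beside Mrps7 (-1.35), Ppp1r10 gave 0.29 beside Mrps18b (-1.57) and Klc4 gave 0.19 beside Mrpl2 (-1.06). Both kinds of pair start within 1000 bases of each other.

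**Figure D3:**
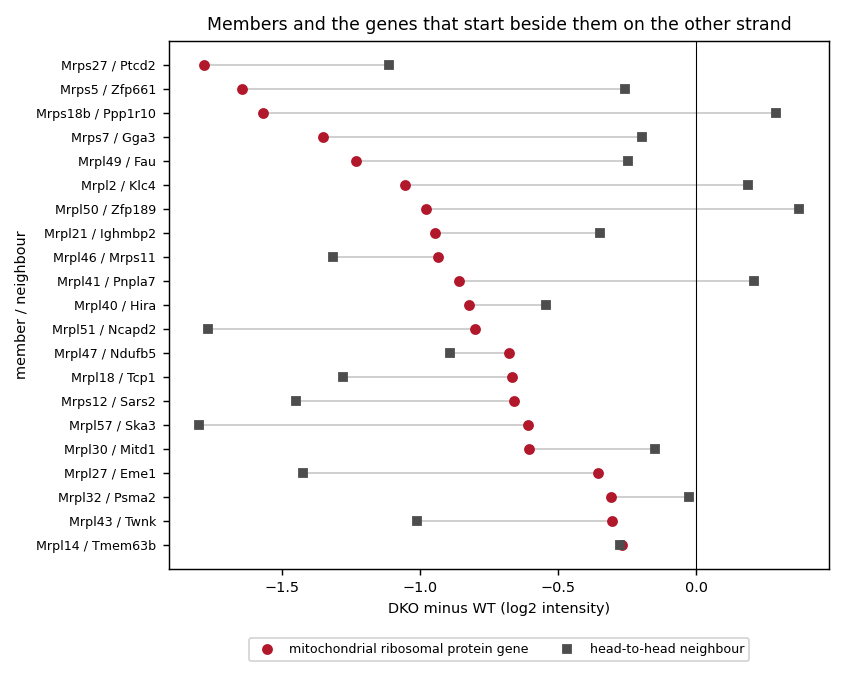
Difference in log2 intensity between DKO and WT for each mitochondrial ribosomal protein gene (circles) and the gene that starts within 1000 bases of it on the other strand (squares), 1 pair per row, for pairs with both genes analysed. Squares lie to the left of the circle in some pairs (Ska3, Ncapd2, Eme1) and near or above 0 in others (Ppp1r10, Klc4).

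The proteins of the mitochondrial ribosome that go by other symbols were lower as well. Gadd45gip1, a large subunit protein at the exit tunnel, read 7.40 on DKO, against 8.65 on Bmi1_KO, 8.77 on Mel18_KO and 8.84 on WT (-1.44). Ptcd3 (-1.07), Dap3 (-0.93) and Chchd1 (-0.59), all of the small subunit, were also past 1.5-fold, which makes 4 of 4 analysed. Assembly and rRNA modification factors followed to a lesser degree, with 16 of 26 at least 1.5-fold lower, 0 higher and a median of -0.67. They included Fastkd2 (-1.74) and the GTPases Eral1, which binds the small subunit rRNA (-1.42), and Mtg1 (-1.25), with the rRNA dimethyltransferase Tfb1m (-1.23).

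Factors that work with the ribosome stood close to it. Of 18 translation and messenger RNA factors 13 were lower and 0 higher (median -0.85), among them the elongation factors Tsfm (-1.72) and Tufm. Tufm read 9.03 on DKO, against 10.41 on Bmi1_KO, 10.54 on Mel18_KO and 10.45 on WT (-1.42). Of 16 mitochondrial aminoacyl-tRNA synthetases 13 were lower and 0 higher (median -0.84), with Yars2 at -1.51. Of 14 genes for mitochondrial DNA transcription, RNA processing and replication 10 were lower (median -0.89), with the tRNA-processing nuclease Elac2 at -1.26. Import machinery and chaperones gave 27 of 32 lower (median -0.94), led by the outer membrane channel Tomm40 (-1.83) and the intermembrane chaperone Timm9 (-1.71). In these 4 lists 0 genes were 1.5-fold higher on DKO than on WT (14.3% of all genes were, and 20.1% were lower).

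Nuclear-encoded subunits of the respiratory chain and ATP synthase, and the cytosolic ribosome, differed less, and both lists read brighter than the members. The median log2 intensity on WT was 11.03 for the respiratory chain list and 11.77 for cytosolic ribosomal proteins, against 9.07 for the members. Whether intensity had a part in the smaller differences was not tested. Nuclear-encoded subunits of the respiratory chain and ATP synthase were lower in 30 of 73 cases (median -0.52), led by the cytochrome Cyc1 (-1.18), and cytosolic ribosomal proteins in 24 of 53 (median -0.53), led by Rps15a (-0.997). Against the mean of the single deletions these medians were -0.64 and -0.57. The gap between the members and respiratory chain genes was therefore narrower in that comparison, where the members' median was -0.83. On Mel18_KO the respiratory chain list lay above WT (median 0.18) while the members did not (-0.04). Of the genes in mitochondrial DNA, 2 were analysed. COX2 read 12.85 on DKO, against 12.83 on Bmi1_KO, 12.68 on Mel18_KO and 12.71 on WT. ND3 read 12.34 on DKO, against 12.37 on Bmi1_KO, 12.08 on Mel18_KO and 12.33 on WT. Both lay near the top of the intensity scale. On DKO they were near WT (0.15 for COX2 and 0.002 for ND3), and both read lowest on Mel18_KO (-0.02 and -0.26 against WT).

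**Figure D4:**
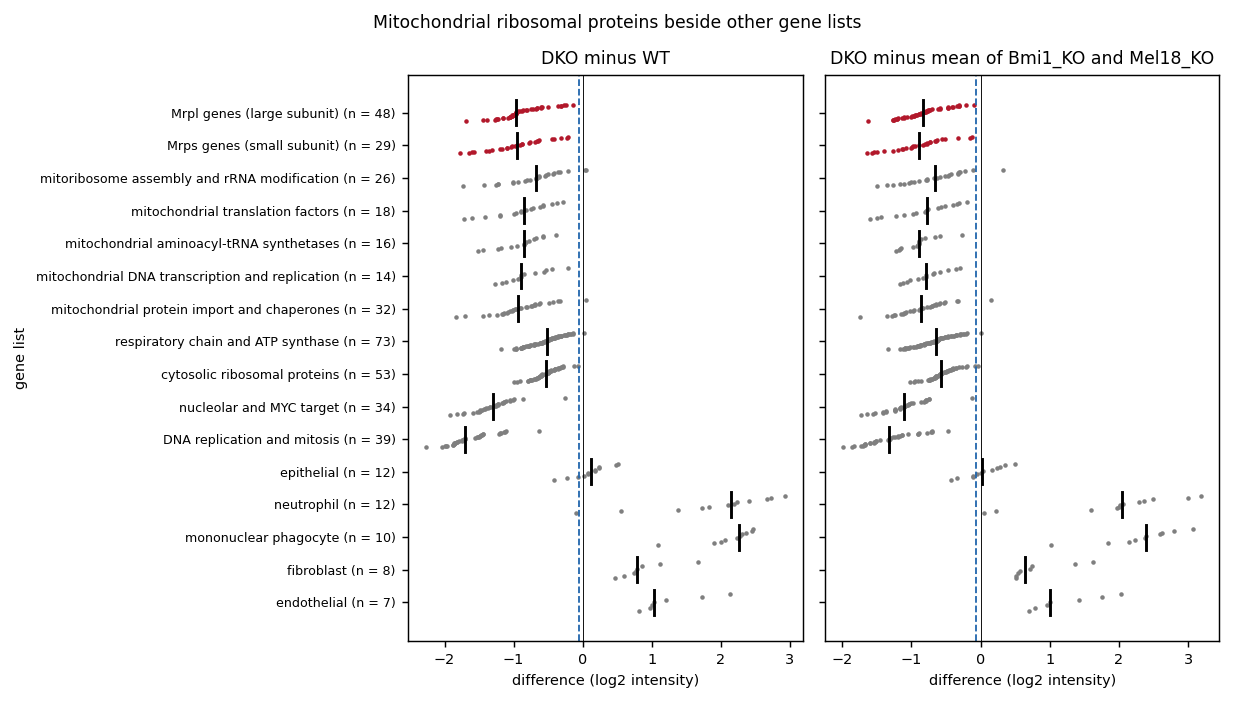
Differences in log2 intensity on DKO against WT (left) and against the mean of Bmi1_KO and Mel18_KO (right), 1 point per gene, for the Mrpl and Mrps genes (red) and other lists (grey), with the list median as a black bar. The dashed line is the median of all 12527 genes. The medians of Mrpl and Mrps genes lie between those of the respiratory chain list (-0.52 against WT) and the nucleolar list (-1.31), while the points of these lists overlap.

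Regulators that act on such genes were mixed. Myc, whose product drives ribosome production, read 8.40 on DKO, against 9.13 on Bmi1_KO, 9.22 on Mel18_KO and 9.92 on WT (-1.52). It was also lower on both single deletions than on WT (-0.79 on Bmi1_KO and -0.70 on Mel18_KO). The coactivators Pprc1 (-0.91) and Ppargc1b (-0.70) and the transcriptional cofactor Hcfc1 (-0.98) were lower on DKO than on WT. Ppargc1a, the best known inducer of mitochondrial genes, read 8.18 on DKO, against 9.11 on Bmi1_KO, 9.32 on Mel18_KO and 8.74 on WT. Its single deletion arrays were the higher ones. Gabpa (0.07), Gabpb1 (0.05), Yy1 (-0.14) and Nrf1 (-0.36) were under 1.5-fold. The 1.5-fold limit between DKO and WT was passed by 4 of the 12 regulators on the low side and by 0 on the high side. Over all genes, 20.1% passed it on the low side and 14.3% on the high side. On such a short list the regulator counts do not stand apart from those shares.

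Genes of proliferating cells and markers of other cell types also differed on DKO, and their part in these differences was not tested. Against WT, DNA replication and mitosis genes were lower on DKO by 1.5-fold or more in 39 of 39 cases (median -1.70) and nucleolar and MYC target genes in 33 of 34 (median -1.31). Of 12 epithelial markers 0 were 1.5-fold apart (median 0.13), with intensities summing to 55297 on DKO, against 52827 on Bmi1_KO, 54257 on Mel18_KO and 51024 on WT. For the 77 members that sum was 27985 on DKO, against 46701 on Bmi1_KO, 49519 on Mel18_KO and 49829 on WT. The epithelial markers read brighter, with a median log2 intensity of 12.00 on WT, against 9.07 for the members. Whether brightness had a part in the small differences of these markers was not tested. Mononuclear phagocyte markers were higher on DKO in 10 of 10 cases (sum 14555 on DKO, against 5101 on Bmi1_KO, 2615 on Mel18_KO and 3956 on WT). The same held for neutrophil markers in 10 of 12 (sum 29402 on DKO, against 19523 on Bmi1_KO, 9057 on Mel18_KO and 12784 on WT).

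Fibroblast markers were higher on DKO than on WT, by 1.5-fold or more, in 7 of 8 cases (sum 3077 on DKO, against 2038 on Bmi1_KO, 1250 on Mel18_KO and 1425 on WT). Endothelial markers were likewise higher in 7 of 7 (sum 1337 on DKO, against 644 on Bmi1_KO, 425 on Mel18_KO and 501 on WT). For T and NK cell markers this held in 2 of 7, for B and plasma cell markers in 2 of 5 and for smooth muscle markers in 1 of 6. Over all genes 14.3% were higher by that much. On so few markers these last counts do not stand apart from that share. Against the mean of the single deletions, smooth muscle markers were higher on DKO in 3 of 6 cases and fibroblast markers in 4 of 8. Over all genes, 14.0% were 1.5-fold higher in that comparison. The smooth muscle median there was 0.67, against 0.08 in the comparison with WT. The markers Cd3d, Ncr1, Lum and Tnfrsf17 stayed under the floor of 6 on every array. Neutrophil markers were also at least 1.5-fold higher on Bmi1_KO than on WT in 10 of 12 cases (2.02% of all genes). On Mel18_KO they were lower in 9 of 12 (2.35% of all genes). By contrast, 0 members passed 1.5-fold on either array. In an unsorted bulk isolate, fewer cells of a type and less RNA per cell cannot be told apart.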

How the data were processed

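The authors deposited 1 RMA intensity per probe set and array on a linear scale, which, per the submitters' processing notes, came from RMA in Affymetrix Expression Console, with no version named. RMA includes a normalization between arrays, yet the deposited medians still differed (an intensity of 72.96 for DKO, 72.91 for Bmi1_KO, 67.04 for Mel18_KO and 69.22 for WT). Rescaled alternatives were run. Intensities ran from 4.70 to 13738 over 35556 probe sets, and log2 was taken here. They carry no counts, so the number of arrays (4, 1 per genotype) limits precision. Of the probe sets, 21797 had 1 gene symbol in the platform annotation, 1613 had several and were not named, and 12146 were not listed with a gene. For 21698 the gene identifier was in the RefSeq table, and 0 symbols needed updating. The set with the highest mean stood for each of 999 genes with several. Genes reaching log2 6 on any array were analysed (12527), which all 77 members did.

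Differences of log2 values, counts past 1.5-fold and medians were computed in Python 3.11.15 with numpy 2.4.6 and pandas 2.3.3, and cyclic loess with limma 3.58.1 in R 4.3.3. The counting was checked on simulated data with planted changes. Members, lists and rules were chosen with earlier results of these data known. Genes named were the extremes of each subunit in each comparison, members with several probe sets or an unusual place in the ribosome, those next to the fold limit and the top genes of other lists. Neighbours, Mrpl46, regulators under the limit, ND3 and COX2 were named outside that rule after their values were seen. Alternatives were other floors, scalings, fold limits, probe set summaries, subunit assignments and a value added before log2.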

Additional observations from a re-analysis of the deposited data

How the results depend on the processing

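Of 102 recomputed values for 10 results, 93 stayed within 0.1 (medians) or 1.5 times (counts) of the reported value and 9 moved by more. Some of the 93 could not have moved. All 77 members passed floors of 6 and 7, so using no floor or a floor of 7 changed nothing. Centring each array cannot change a difference between the subunits. The large minus small subunit difference against WT, -0.01 as reported, changed sign under cyclic loess (0.03) and with every probe set (0.01). Centring each array on its median shifted the median of all genes from -0.05 to 0.09 for DKO minus WT. It took the members' median to -0.82 against WT, -0.71 against the mean of the single deletions and -0.68 for the departure from additivity, with 54 members at least 1.5-fold lower than WT and 76 lower by any amount. The split over all genes turned from 2524 lower and 1794 higher to 1887 lower and 2342 higher. Cyclic loess gave medians of -0.84, -0.71 and -0.63 in the same order and 56 members lower than WT. Members below the mean of the single deletions by any amount on DKO numbered 75 with centring and 74 with cyclic loess. On Bmi1_KO, 55 members lay below WT by any amount with centring and 63 with cyclic loess. The shares of all genes below by any amount were not computed under these scalings. DKO was also set against Bmi1_KO in place of WT, a choice made after the data were seen. This gave a median of -0.80 and 57 members at least 1.5-fold lower (17.6% of all genes). Mel18_KO in place of WT gave -0.89 and 60 members (20.8% of all genes). A 2-fold limit left 31 members lower than WT and 23 lower than the mean of the single deletions. The count of members higher on DKO was 0 under every alternative run. Over its alternatives the large minus small subunit difference against WT ranged from -0.09 to 0.03, so no order of the subunits held there. Against the mean of the single deletions that difference was 0.06, and its alternatives ranged from 0.03 to 0.11. The small subunit was thus slightly the lower under each setting of that comparison. No paired analysis was possible because each genotype had 1 array; leaving out a replicate was not possible for the same reason. Dim probe sets limit what can be read of Mrps26, Mrps17 and Mrps30, which read under 6.4 on DKO.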

Other observations

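Mrpl53 was outside the rule because its probe set also carries Ccdc142. That probe set read 6.60 on DKO, against 6.98 on Bmi1_KO, 7.05 on Mel18_KO and 6.97 on WT, a difference of -0.37 between DKO and WT that cannot be assigned to either gene.

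Members differed by promoter letters to a small extent. The 25 members with the ETS core had a median difference of -0.76 between DKO and WT, against -0.96 for the 43 without it. The 11 members with the YY1 motif had a median of -1.17, against -0.88 for the 57 without it, and the 13 with the NRF1 motif had -0.87, against -0.95 for the 55 without it. The 5 with an E-box had -1.03, against -0.91 for the 63 without it. These are descriptions with no test.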
